A study of Mus musculus with 5 samples.

Results

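The presynaptic release machinery was described here by 48 genes, taken from a fixed list of names and all found among the 21883 protein-coding genes of the RefSeq annotation of the mouse genome build GRCm38.p6. They comprise 6 genes of the SNARE fusion complex and its recycling, 13 genes of calcium sensors and complexins, 16 genes of the active zone and 13 genes of vesicle proteins and their uptake. The measurement was ATRX occupancy, by sequencing of chromatin immunoprecipitated with an ATRX antibody (ChIP-seq), in primary neurons cultured from C57BL6/J mouse embryos at E15.5 to 17.5. ATRX is a chromatin remodeller known for depositing the histone variant H3.3 with its partner DAXX at repeats and heterochromatin. All cultures were given lentivirus on day 5 in vitro (DIV5; the label is spelled DVI5). There was 1 ChIP library of TBC1D3 neurons at DIV14, 1 of MICAL1-M1 neurons at DIV14, 1 of mCherry neurons at DIV7 and 1 of mCherry neurons at DIV14, the control. TBC1D3 is a gene of humans and other hominoids that mice lack, MICAL1 is an enzyme that oxidises actin, and mCherry is a fluorescent protein. What the M1 construct carries, the promoter of the virus, the share of infected cells and the number of embryos are not stated in the labels. The series title places the comparisons in a study of how fast synapses mature. With 1 library per group no difference between libraries has a replicate check, so none is given a p-value, and intervals cover counting error only.

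At a presynaptic terminal, vesicle and plasma membrane SNARE proteins zip into a complex that pulls the membranes together. Synaptotagmins sense the calcium that enters with an action potential and trigger fusion, while complexins hold and release the partly built fusion complex. Scaffolds of the active zone dock and prime vesicles beside calcium channels, and vesicle proteins load, tether and recycle the vesicles. These genes are switched on as neurons form synapses, and their RNA is a usual measure of synapse maturation. The peak lists hold chromatin positions and no RNA, so neither expression nor cell type could be read from them.

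The deposited lists hold 199059 peaks for TBC1D3, 141387 for MICAL1-M1, 213982 for mCherry DIV7 and 96670 for the control. Every list was cut at an uncorrected p just under 0.05, and 0.205%, 0.463%, 0.236% and 4.19% of these peaks had a q, the p corrected over the genome, of at most 0.05. Depth was read from the peaks themselves, since the fold and p of a peak fix the whole number of fragments at its summit, the pileup. The background of the genome was 1.22 fragments in TBC1D3, 2.61 in MICAL1-M1, 1.28 in mCherry DIV7 and 3.56 in the control, so TBC1D3 and mCherry DIV7 are the shallow libraries. A median peak had a pileup of 4, 7, 4 and 9 fragments in the same order. The share of peaks on chromosome X was 1.79% in TBC1D3, 0.924% in MICAL1-M1, 2.76% in mCherry DIV7 and 0.418% in the control. The part that depth, or the culture behind a library, has in the differences between libraries was not tested.

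Sequences before the start of transcription show how different the promoters of this machinery are. Given are bases upstream of the annotated gene, from RefSeq (GRCm38.p6), read 5′ to 3′ along the gene, with CpG dinucleotides in capitals. Erc1, Bsn, Rims3 and Syt1 are shown because a control peak with q of at most 0.05 covers all the bases printed, Unc13a because its start lay under or beside overlapping peaks in every library, and Syp because no library had a peak there. Their positions are chr6:119848185-119848400 for Erc1 (minus strand), chr9:108190420-108190633 for Bsn (minus), chr4:120854549-120854778 for Rims3 (plus), chr10:109010981-109011225 for Syt1 (minus), chr8:71671775-71672007 for Unc13a (minus) and chrX:7638330-7638579 for Syp (plus).
Erc1: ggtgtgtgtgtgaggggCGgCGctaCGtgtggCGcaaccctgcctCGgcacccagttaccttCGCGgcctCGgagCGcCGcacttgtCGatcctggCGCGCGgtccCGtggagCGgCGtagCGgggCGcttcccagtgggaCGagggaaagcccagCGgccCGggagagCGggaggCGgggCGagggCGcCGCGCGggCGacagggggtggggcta
Bsn: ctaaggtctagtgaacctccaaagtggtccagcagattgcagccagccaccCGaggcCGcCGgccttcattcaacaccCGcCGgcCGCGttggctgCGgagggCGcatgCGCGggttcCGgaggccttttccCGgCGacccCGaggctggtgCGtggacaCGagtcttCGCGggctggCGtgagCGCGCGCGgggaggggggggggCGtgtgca
Rims3: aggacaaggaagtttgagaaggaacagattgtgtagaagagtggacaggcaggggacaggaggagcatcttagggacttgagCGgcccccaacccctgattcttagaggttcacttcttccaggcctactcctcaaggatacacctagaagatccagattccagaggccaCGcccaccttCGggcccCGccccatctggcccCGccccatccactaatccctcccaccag
Syt1: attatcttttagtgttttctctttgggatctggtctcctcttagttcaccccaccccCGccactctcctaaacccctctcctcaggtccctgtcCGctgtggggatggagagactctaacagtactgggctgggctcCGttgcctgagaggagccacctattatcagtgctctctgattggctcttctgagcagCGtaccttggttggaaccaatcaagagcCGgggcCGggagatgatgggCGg
Unc13a: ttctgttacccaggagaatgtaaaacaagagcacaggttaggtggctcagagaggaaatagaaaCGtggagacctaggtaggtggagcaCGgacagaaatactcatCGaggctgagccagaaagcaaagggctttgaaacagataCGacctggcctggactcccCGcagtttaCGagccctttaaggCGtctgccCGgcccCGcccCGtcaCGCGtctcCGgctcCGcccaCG
Syp: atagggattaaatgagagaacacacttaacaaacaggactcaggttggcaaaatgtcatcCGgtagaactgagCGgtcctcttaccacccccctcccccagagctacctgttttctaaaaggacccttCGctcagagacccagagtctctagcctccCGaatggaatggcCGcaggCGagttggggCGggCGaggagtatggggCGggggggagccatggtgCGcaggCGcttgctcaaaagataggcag
The Erc1 stretch has 30 CpG in 216 bases and that of Bsn 25 in 214. Rims3 has 5 CpG in 230 bases and Syt1 has 7 in 245, although both lie under control peaks as strong as that of Bsn. Unc13a has 15 CpG in 233 bases, and Syp, with no peak, has 11 in 250. The control summit of Erc1 stands 22 bases before the gene, inside the printed stretch. MICAL1-M1 peaks cover 216 of the Erc1 bases, 230 of the Rims3 bases and 145 of the Syt1 bases, a DIV7 peak covers 200 of the Erc1 bases, and no TBC1D3 peak touches any of the 6 stretches.

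A gene was counted as occupied when a peak summit lay within 1 kb of either end of the gene. By this rule 23 of the 48 genes (47.9%, 95% exact binomial interval 33.3 to 62.8%) were occupied in TBC1D3, 29 (60.4%, 45.3 to 74.2%) in MICAL1-M1, 19 (39.6%, 25.8 to 54.7%) in mCherry DIV7 and 31 (64.6%, 49.5 to 77.8%) in the control. Over all protein-coding genes the shares were 33.4%, 38.7%, 33.2% and 42.3% in the same order. With this window the release machinery stood above the background in each library, by most in the control and MICAL1-M1, while in TBC1D3 and mCherry DIV7 the background lies inside the interval. With a window of 0.5 kb mCherry DIV7 had 11 genes (22.9%), against 20.6% of all genes. TBC1D3 then had 12 of 48, against 20.4%, so the excess in both was small. In MICAL1-M1 the share was then 41.7%, against 26.8%, and in the control 43.8%, against 31.9%. With a window of 3 kb mCherry DIV7 had 28 genes (58.3%), against 59.3% of all genes, and so no excess. In windows of the same width 20 kb outside the gene ends, 8, 10, 9 and 8 of the 48 genes had a summit (16.7%, 20.8%, 18.8% and 16.7%), against 24.0%, 14.4%, 25.1% and 10.8% of all genes. In the shallow libraries the outside windows of the release machinery were thus no fuller than those of other genes.

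Peaks that pass the correction over the genome were found at gene ends of the release machinery in the control alone. At q of at most 0.05 TBC1D3 had 0 members, MICAL1-M1 had 0 and mCherry DIV7 had 0, against 9 of 48 (18.8%) in the control, where 8.46% of all protein-coding genes passed. In the other 3 libraries the background at this threshold was 0.146%, 1.33% and 0.228% of genes, so few members could be counted there. The 9 genes are Ppfia2, Erc1, Bsn, Rims1 and Rims3 of the active zone, the SNARE gene Snap25, the synaptotagmins Syt1 and Syt4, and the dynamin gene Dnm1. Gene-end peaks of the 48 genes held 3 to 7 fragments (median 5) in TBC1D3, 5 to 15 (median 8) in MICAL1-M1, 3 to 8 (median 4) in mCherry DIV7 and 8 to 21 (median 13) in the control. Fold and pileup are therefore read within a library below, and not as an amount of ATRX across libraries.

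**Figure D1:**
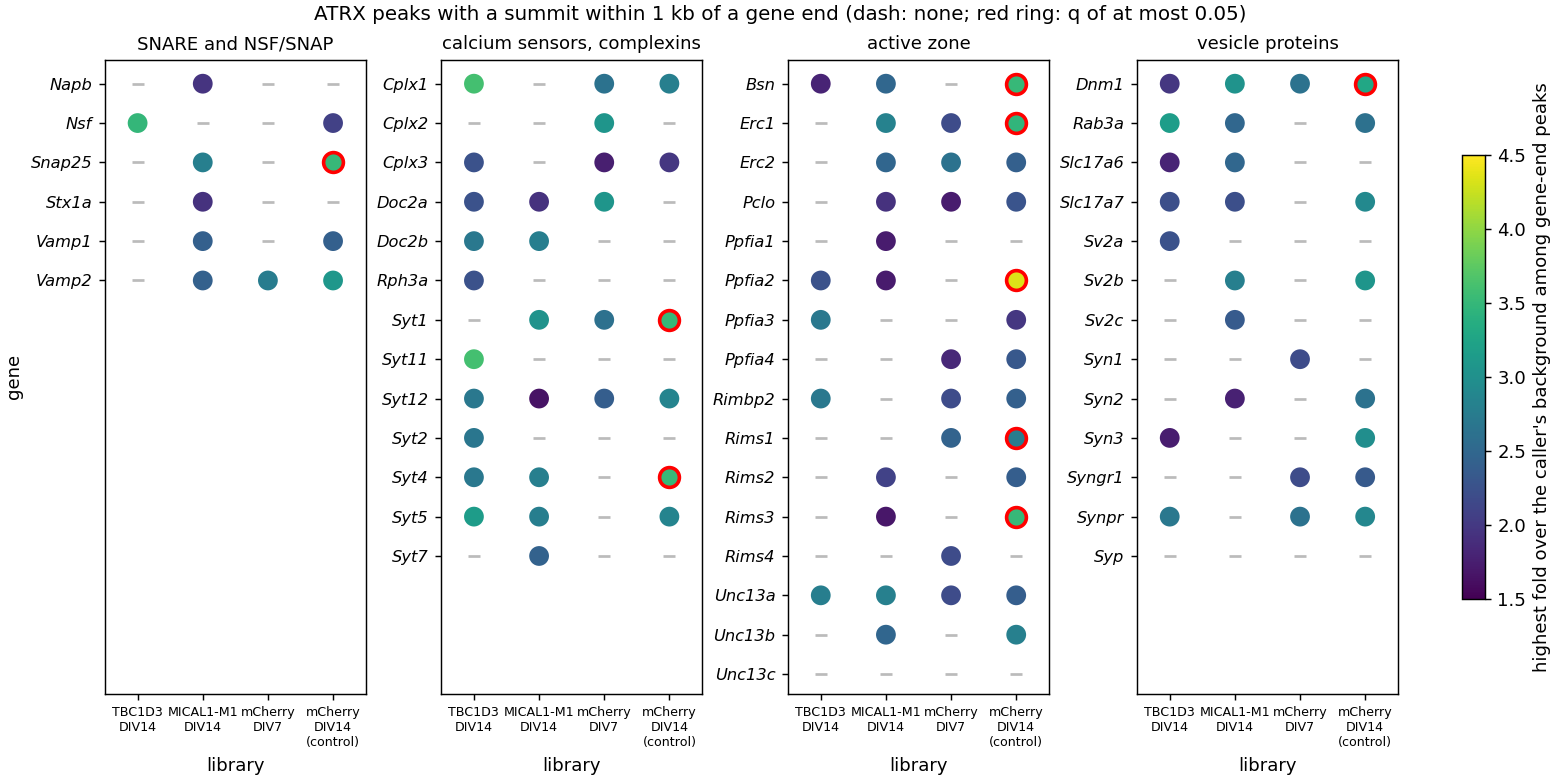
Each dot is a gene of the release machinery (rows, by function) with a peak summit within 1 kb of a gene end in a library (columns), coloured by the highest fold over the caller's background among those peaks (scale 1.5 to 4.5). Dashes mark genes without one, and the 9 red rings, all in the control, mark q of at most 0.05.

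Among the genes of membrane fusion itself, 1 of 6 was occupied in TBC1D3, 5 in MICAL1-M1, 1 in mCherry DIV7 and 4 in the control. Snap25, a plasma membrane SNARE, had no gene-end peak in TBC1D3, a peak of 2.78-fold and 10 fragments in MICAL1-M1, none in mCherry DIV7, and peaks of 3.51-fold (chr2:136713499-136714687, 16 fragments, q 0.0116) and 2.17-fold in the control. It was thus occupied in the deeper libraries alone, and its MICAL1-M1 peak overlaps the weaker of the control peaks. Vamp2, the main vesicle SNARE of the forebrain, had no peak in TBC1D3, 2.42-fold in MICAL1-M1, 2.75-fold in mCherry DIV7 and 3.09-fold in the control, where its q of 0.0515 was just over the threshold. Its relative Vamp1 had a peak of 2.41-fold in MICAL1-M1 and of 2.41-fold in the control, which overlap. Nsf, the ATPase that takes spent SNARE complexes apart, was the 1 gene of the group with a TBC1D3 peak. That peak had 3.48-fold and 7 fragments (q 0.457), ahead of 98.3% of the TBC1D3 list by p, and it did not overlap the control peak of 2.08-fold. Stx1a, the syntaxin partner of Snap25, and Napb, the adaptor that brings Nsf to the complex, had gene-end peaks in MICAL1-M1 only, at up to 1.93-fold and 1.95-fold, with q of 1. For both, the control had a summit just beyond the window, at 1023 bp for Stx1a and 1008 bp for Napb, so both had control occupancy just beyond the limit.

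With the window of 1 kb the calcium sensors and complexins were occupied most often in TBC1D3. There 10 of 13 were occupied, with 7 in MICAL1-M1, 6 in mCherry DIV7 and 6 in the control. This lead over the control was not seen within 0.5 kb, where TBC1D3 kept Cplx3, Doc2b, Syt2, Syt11 and Syt12. The control then kept Cplx1, Cplx3, Syt1, Syt4 and Syt12. Syt1, the sensor of fast synchronous release in forebrain neurons, had no gene-end peak in TBC1D3, 3.05-fold and 10 fragments in MICAL1-M1, 2.60-fold and 5 fragments in mCherry DIV7, and 3.51-fold and 15 fragments in the control (chr10:109010611-109011599, q 0.0189). Its MICAL1-M1 peak had the joint highest fold, with Dnm1, of those within 1 kb of a gene end of the release machinery in that library, and overlaps the control peak, while the DIV7 peak lies further upstream and does not. Syt4, a synaptotagmin that binds calcium poorly, had 2.71-fold and 5 fragments in TBC1D3, 2.78-fold and 10 fragments in MICAL1-M1, no peak in mCherry DIV7, and 3.51-fold and 15 fragments in the control (chr18:31446338-31448382, q 0.0189). Both of the other peaks overlap the broad control peak. Syt12, another family member that lacks the calcium ligands, was occupied in every library, at 2.71-fold in TBC1D3, 1.64-fold in MICAL1-M1, 2.39-fold in mCherry DIV7 and 2.85-fold in the control. These are not at the same place, since the TBC1D3 peak lies at the opposite end of the gene and the DIV7 peak does not overlap the control peak.

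TBC1D3 was the 1 library with gene-end peaks at Syt2, Syt11 and Rph3a. Syt2, the fast sensor of brainstem and spinal synapses, had peaks of 2.68-fold and 1.80-fold, and Rph3a, the Rab3 effector rabphilin, had 1 of 2.26-fold, all with q of 1. Syt11, a synaptotagmin without calcium binding, had 3.61-fold and 7 fragments (q 0.457), the joint highest fold of any member in this library with Cplx1. The nearest control summit at Syt11 lay 1042 bp from a gene end, outside the window. Cplx1, the main complexin of fast forebrain and hindbrain synapses, had 3.61-fold in TBC1D3, no peak in MICAL1-M1, 2.63-fold in mCherry DIV7 and 2.79-fold in the control, and neither the TBC1D3 nor the DIV7 peak overlaps that of the control. Cplx2, its forebrain relative, had gene-end peaks in mCherry DIV7 alone, of 3.07-fold and 2.19-fold at the 3′ end. A MICAL1-M1 peak of 3.82-fold and q 0.0335 at Cplx2 had its summit 1136 bp from the gene end and so fell outside the count. Doc2a and Doc2b, high-affinity sensors of spontaneous and asynchronous release, had no control peak. Doc2a had up to 2.26-fold in TBC1D3, 1.93-fold in MICAL1-M1 and 3.07-fold in mCherry DIV7, and Doc2b had up to 2.70-fold in TBC1D3 and 2.77-fold in MICAL1-M1. Syt7, the slow sensor of asynchronous release, had a peak in MICAL1-M1 only, of 2.44-fold. Syt5, a vesicle synaptotagmin, had 3.15-fold in TBC1D3, 2.77-fold in MICAL1-M1, none in mCherry DIV7 and 2.85-fold in the control. Its MICAL1-M1 peak overlaps that of the control, and its TBC1D3 peak lies at the other end of the gene. Cplx3, a complexin of retinal ribbon synapses, had 2.26-fold in TBC1D3, none in MICAL1-M1, 1.75-fold in mCherry DIV7 and 1.97-fold in the control, all at a start that is also near an end of Lman1l.

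The active zone held most of the strong control peaks. Of its 16 genes 5 were occupied in TBC1D3, 10 in MICAL1-M1, 8 in mCherry DIV7 and 13 in the control. Ppfia2, which encodes the scaffold liprin-α2, had the gene-end peak of highest fold of the release machinery in the control, at 4.34-fold and 20 fragments (chr10:106469583-106470697, q 0.000112), 546 bp inside the 5′ end. At its 3′ end it had 2.26-fold in TBC1D3 and 1.71-fold in MICAL1-M1, beside the end of the neighbouring gene Acss3, and it had no gene-end peak in mCherry DIV7, where a summit lay 1179 bp inside. Within 1 kb of its 5′ end Ppfia2 thus had a summit in the control alone. Bsn, the giant scaffold bassoon, had 1.80-fold and 3 fragments in TBC1D3, 2.49-fold at the 3′ end and 1.66-fold at the 5′ end in MICAL1-M1, none in mCherry DIV7, and 3.51-fold and 15 fragments in the control (chr9:108189476-108190638, q 0.0189). The 5′ peaks of TBC1D3 and MICAL1-M1 overlap that of the control, at low pileup. Erc1, an ELKS scaffold that binds RIM proteins and liprins, had no peak in TBC1D3, 2.82-fold and 11 fragments in MICAL1-M1, 2.19-fold and 4 fragments in mCherry DIV7, and 3.46-fold and 17 fragments in the control (chr6:119848003-119848688, q 0.0096). All of the Erc1 peaks overlap and lie over the CpG-dense bases printed above.

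RIM proteins bind Rab3 on vesicles and hold calcium channels at the release site. Rims1, the main RIM scaffold, had no peak in TBC1D3, none in MICAL1-M1, 2.45-fold and 2.19-fold in mCherry DIV7, and 2.75-fold and 21 fragments in the control (chr1:22805384-22806791, q 0.0428), the highest pileup of the list. Rims3, a short RIM, had no peak in TBC1D3, 1.69-fold and 6 fragments in MICAL1-M1, none in mCherry DIV7, and 3.51-fold and 15 fragments in the control (chr4:120854463-120855024, q 0.0189). No RIM gene had a TBC1D3 summit within 1 kb of a gene end. TBC1D3 summits beyond the window lay 1178 bp from a Rims4 end and 1541 bp from a Rims1 end. At gene ends Rims2 had 2.10-fold in MICAL1-M1 and 2.38-fold in the control, and Rims4 had 2.19-fold in mCherry DIV7 alone. Rimbp2, which links RIM to calcium channels, had 2.71-fold in TBC1D3, no peak within the window in MICAL1-M1, 2.19-fold in mCherry DIV7, and peaks of 2.41-fold and 2.17-fold in the control. A MICAL1-M1 peak of 3.62-fold and q 0.0426 had its summit 1060 bp inside Rimbp2 and overlapped the window without being counted.

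The Munc13 proteins prime docked vesicles for fusion. Unc13a, their main forebrain form, was occupied in every library by overlapping peaks at its start, of 2.77-fold and 6 fragments in TBC1D3, 2.80-fold and 15 fragments in MICAL1-M1, 2.19-fold and 4 fragments in mCherry DIV7, and 2.38-fold and 12 fragments in the control. The MICAL1-M1 pileup is the highest of any gene-end peak of the 48 genes in that library (q 0.325). Unc13b had 2.48-fold at its 3′ end and 2.17-fold at its 5′ end in MICAL1-M1 and 2.80-fold in the control, at a 5′ end shared with Fam214b. Unc13c, the form best known from cerebellum, had none in any library. Erc2 and Pclo, which encode a brain ELKS scaffold and the giant scaffold piccolo, were occupied in MICAL1-M1, mCherry DIV7 and the control, at up to 2.48-fold, 2.63-fold and 2.41-fold for Erc2, and 1.93-fold, 1.73-fold and 2.27-fold for Pclo. Of the other liprin genes, Ppfia1 had 1.73-fold in MICAL1-M1 only, Ppfia3 had 2.71-fold at its 3′ end near Hrc in TBC1D3 and up to 1.97-fold in the control, and Ppfia4 had 1.83-fold in mCherry DIV7 and 2.31-fold in the control.

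Of the 13 vesicle and recycling genes 7 were occupied in TBC1D3, 7 in MICAL1-M1, 4 in mCherry DIV7 and 8 in the control. Dnm1, the neuronal dynamin that pinches off recycled vesicles, was occupied in every library, with 1.98-fold and 4 fragments at the 3′ end in TBC1D3, 3.05-fold and 10 fragments in MICAL1-M1, 2.63-fold and 5 fragments in mCherry DIV7, and 3.29-fold and 14 fragments in the control (chr2:32351534-32353291, q 0.047). The last 3 overlap at the 5′ end, and the TBC1D3 peak is elsewhere. Syp, the vesicle marker synaptophysin, had no gene-end peak in any library, and Syn1, which encodes the vesicle tether synapsin I, had peaks in mCherry DIV7 only, both of 2.19-fold and 4 fragments. Both lie on chromosome X, where the control and MICAL1-M1 had the smallest shares of their peaks. The other synapsin genes were occupied in the control, Syn2 at 2.63-fold and Syn3 at 2.97-fold, and Syn2 had 1.78-fold in MICAL1-M1 and Syn3 1.74-fold in TBC1D3. The vesicular glutamate transporter genes differed: Slc17a7 had 2.22-fold in TBC1D3, 2.22-fold in MICAL1-M1 and 2.92-fold in the control, whereas Slc17a6 had 1.80-fold in TBC1D3 and 2.49-fold in MICAL1-M1 and none in the control. The SV2 family, vesicle glycoproteins that are receptors of botulinum toxins, was occupied in different libraries, Sv2a in TBC1D3 only (2.25-fold), Sv2b in MICAL1-M1 (2.78-fold) and the control (3.07-fold), and Sv2c in MICAL1-M1 only (2.35-fold). A control peak of 3.72-fold and q 0.00701 had its summit 1589 bp from a Sv2c end. Rab3a, the small GTPase of docking, had up to 3.16-fold in TBC1D3, 2.49-fold in MICAL1-M1, none in mCherry DIV7 and 2.61-fold in the control. Synpr, a synaptophysin relative, had 2.71-fold at its 3′ end in TBC1D3, 2.63-fold in mCherry DIV7 and 2.89-fold in the control, and Syngr1, a tetraspan vesicle protein, had up to 2.19-fold in mCherry DIV7 and 2.33-fold in the control.

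**Figure D2:**
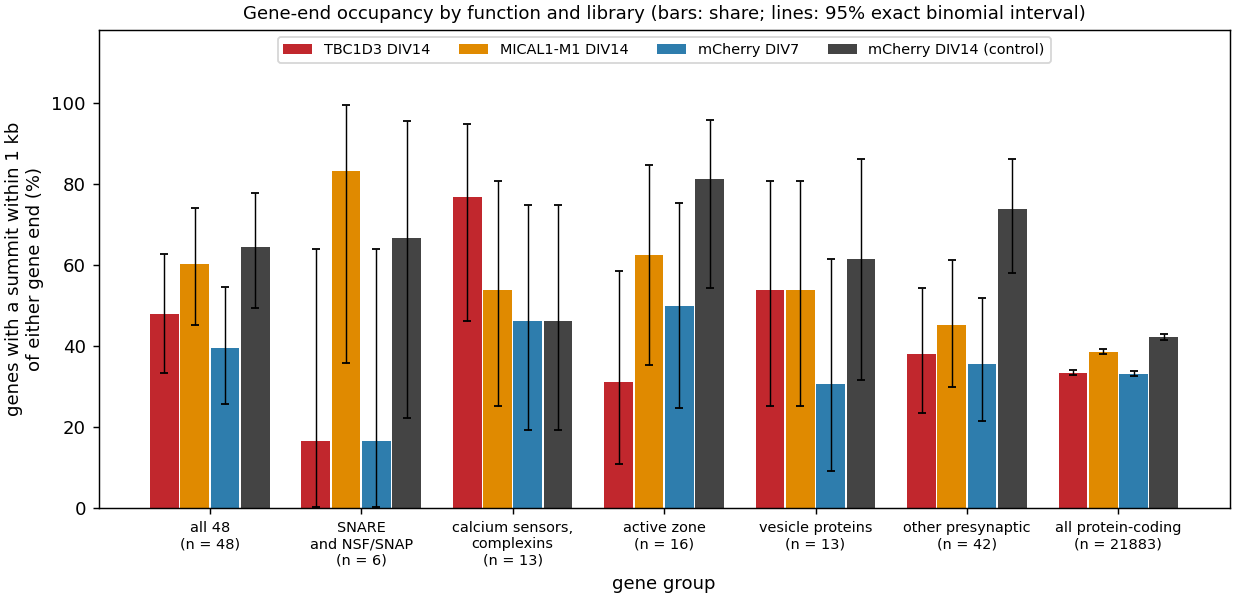
Bars give the share of genes with a peak summit within 1 kb of either gene end (y axis, %), by gene group (x axis) and library (colour), with 95% exact binomial intervals as lines. The active zone stands at 31.3% in TBC1D3 and 81.3% in the control, the calcium sensors and complexins at 76.9% in TBC1D3 and 46.2% in the control, with wide intervals in both.

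Few genes were empty everywhere. Across the 4 libraries 3 of 48 genes (Unc13a, Syt12 and Dnm1; 6.25%) were occupied in all, against 6.24% of all protein-coding genes, and 2 (Unc13c and Syp; 4.17%) in none, against 27.0%. Exactly 1 library occupied 12 of the 48 genes, and 26.9% of all genes. Of the 12, 5 were occupied in MICAL1-M1, 4 in TBC1D3, 3 in mCherry DIV7 and 0 in the control. In this order these are 10.4%, 8.33%, 6.25% and 0% of the 48 genes, against 4.71%, 7.49%, 8.28% and 6.43% of all genes. Every release machinery gene with a control gene-end peak thus had one in another library as well, though not always at the same site.

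For 37 of the 48 genes the strand is known from the RefSeq promoter table, which separates the start from the 3′ end. A summit lay within 1 kb of the start in 13 of 37 (35.1%) in TBC1D3, 19 (51.4%) in MICAL1-M1, 13 (35.1%) in mCherry DIV7 and 24 (64.9%, 47.5 to 79.8%) in the control, against 24.3%, 34.6%, 24.2% and 39.7% of the 17491 genes with a strand. At the 3′ end there were 6, 4, 3 and 1 of the 37, against 13.1%, 7.82%, 12.7% and 5.79% of those genes. Occupancy of these genes in the control was thus at their starts, and the 3′ end was used by Rimbp2 alone. Summits near a start lay at a median distance of 536 bp from it in TBC1D3, 369.5 bp in MICAL1-M1, 499 bp in mCherry DIV7 and 263 bp in the control. Summits thus lay nearest the starts in the control. The medians rest on 15, 24, 14 and 27 summits in the same order. Those of the shallow libraries lie near the middle of the 1 kb window, as for summits spread evenly over it.

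**Figure D3:**
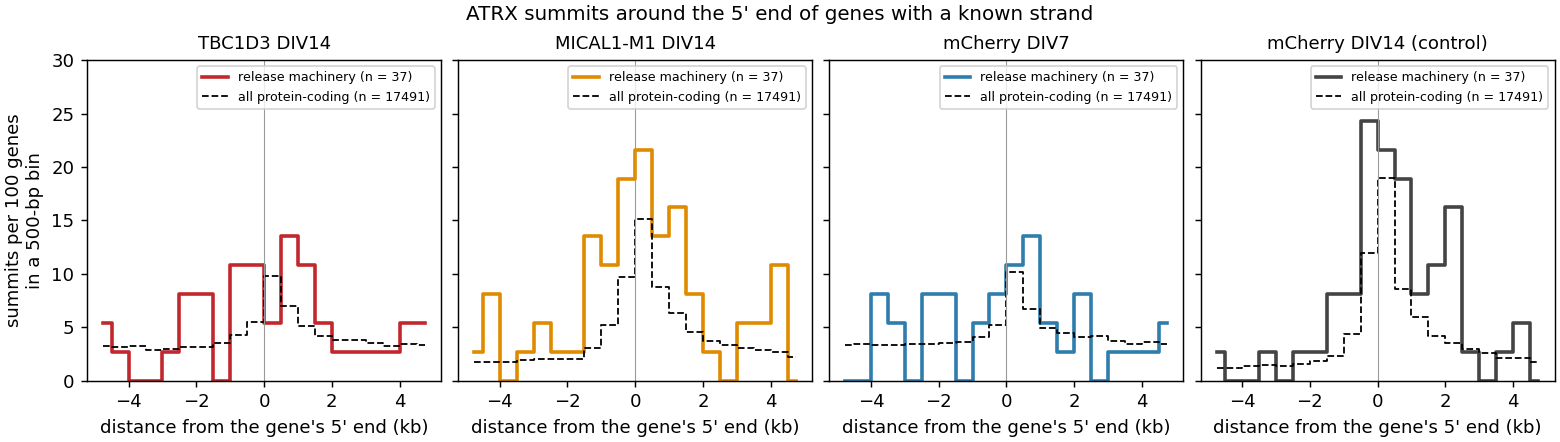
Peak summits per 100 genes (y axis) in bins of 500 bp by distance from the 5′ end of the gene (x axis, kb, negative upstream), for the 37 release machinery genes with a known strand (coloured line) and 17491 protein-coding genes (dashed), a panel per library. Both lines are highest near 0 in the control and MICAL1-M1, and the lines of TBC1D3 and mCherry DIV7 are lower there.

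Promoters of the release machinery are rich in CpG, but its occupied starts were not only the rich ones. The 300 bases around the start held a median of 19 CpG in the 37 genes and 13 in all genes, and 23 of 37 (62.2%) were CpG-rich (an observed to expected CpG ratio of at least 0.6 and a GC content of at least 50%) against 45.8%. In the CpG-rich class a start summit was found in 7 of 23 genes in TBC1D3, 13 in MICAL1-M1, 8 in mCherry DIV7 and 16 in the control (69.6%), close to the 64.1% of all CpG-rich genes in the control. In the CpG-poor class it was found in 6 of 14 genes in TBC1D3, 6 in MICAL1-M1, 5 in mCherry DIV7 and 8 in the control (57.1%, 28.9 to 82.3%), where 17.7%, 17.6%, 18.4% and 19.2% of all CpG-poor genes had one. The intervals were 17.7 to 71.1% in TBC1D3 and in MICAL1-M1 and 12.8 to 64.9% in mCherry DIV7, so that the background of TBC1D3 and of mCherry DIV7 lies inside them. The 14 genes had a median of 10.5 CpG, against 4 in all CpG-poor genes, so the classes are not alike in CpG.

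Short motifs were searched on both strands of the same 300 bases. The letters GGGCGG, the core of a GC box, were in 29 of 37 release machinery promoters (78.4%) and 46.3% of all promoters. They were in 20 of the 24 with a control start summit and 9 of the 13 without, against 68.2% and 31.9% over all genes. The palindrome TGACGTCA, a cyclic AMP response element, was in 1 of 37 (2.70%) and 2.33% of all. A G-quadruplex pattern, the kind of G-rich sequence that ATRX is known to bind in vitro, was in 17 of 37 (45.9%) and 21.2% of all, in 12 of the 24 with a control start summit and 5 of the 13 without, against 28.9% and 16.1% over all genes. These are matches of letters and show no binding by any factor.

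The comparison of TBC1D3 with the control at DIV14 asks how ATRX lies at these genes in neurons given a hominoid gene. Of the 48 genes 16 were occupied in both, 7 in TBC1D3 and not the control, and 15 in the control and not TBC1D3. These are 14.6% and 31.3% of the release machinery, against 15.6% and 24.4% of all protein-coding genes. TBC1D3 peaks were found at 16 of the 31 control genes (51.6%), against 42.3% over all genes. By function, 0 active zone genes were occupied in TBC1D3 alone of this pair and 8 in the control alone (Erc1, Erc2, Pclo, Ppfia4, Rims1, Rims2, Rims3 and Unc13b). Of the calcium sensors and complexins, 5 were occupied in TBC1D3 and not the control (Syt2, Syt11, Rph3a, Doc2a and Doc2b) and 1, Syt1, in the control and not TBC1D3. Of the SNARE group 0 and 3 were so, and of the vesicle genes 2 and 3. Rph3a and Doc2a had no TBC1D3 summit within 0.5 kb of a gene end. In numbers of genes the difference was -8 for the whole list.

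MICAL1-M1 had the most genes in common with the control. There were 21 genes occupied in both, 8 in MICAL1-M1 and not the control, and 10 in the control and not MICAL1-M1, which is 16.7% and 20.8% of the release machinery against 11.6% and 15.2% of all genes. Its peaks were found at 21 of the 31 control genes (67.7%), against 64.1% over all genes, and the difference in number was -2. With lists of equal size, and also at q of at most 0.05, this difference was -9. The shares over all genes also lay further apart than 38.7% and 42.3%. They were 33.6% in MICAL1-M1 and 42.3% in the control at equal size, and 1.33% and 8.46% at this q. The 8 genes were Napb, Stx1a, Doc2a, Doc2b, Syt7, Ppfia1, Slc17a6 and Sv2c. The 10 without a MICAL1-M1 summit in the window included Rims1, Rimbp2, Cplx1, Nsf, Synpr and Syn3. At Rimbp2 a MICAL1-M1 peak of 3.62-fold and q 0.0426 had its summit just outside, at 1060 bp.

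In the younger neurons the release machinery had its fewest occupied genes. At DIV7 15 genes were occupied in both, 4 in mCherry DIV7 and not the control (Syn1, Cplx2, Rims4 and Doc2a), and 16 in the control and not mCherry DIV7, a difference of -12. These are 8.33% and 33.3% of the release machinery, against 15.7% and 24.7% of all genes. The 16 are Snap25, Vamp1, Nsf, Syt4, Syt5, Bsn, Ppfia2, Ppfia3, Rims2, Rims3, Unc13b, Rab3a, Slc17a7, Sv2b, Syn2 and Syn3. DIV7 peaks were found at 15 of the 31 control genes (48.4%), against 41.5% over all genes. The 3 comparisons share the control library, and the lists differ in depth and length as given above. Whether the lower number at DIV7 belongs to age or to depth cannot be told apart with these libraries.

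An occupied gene need not be occupied at the same site. Of the genes occupied both in TBC1D3 and in the control, 6 of 16 had gene-end peaks that overlap by at least 1 bp. That is 37.5% (95% interval 15.2 to 64.6%), against 59.4% over all genes. For mCherry DIV7 and the control it was 7 of 15 (46.7%, 21.3 to 73.4%, against 58.6%). For MICAL1-M1 and the control it was 17 of 21 (81.0%, 58.1 to 94.6%, against 82.2%). Between TBC1D3 and mCherry DIV7 themselves it was 3 of 8 (37.5%, 8.52 to 75.5%, against 44.1%). The share over all genes lies inside each of these intervals. At starts, TBC1D3 had a summit at 8 of the 24 genes with a control start summit (33.3%, against 33.9% over all genes), MICAL1-M1 at 14 (58.3%, against 62.0%) and mCherry DIV7 at 12 (95% interval 29.1 to 70.9%, against 33.0%). Of the 13 starts empty in the control, 5 had a TBC1D3 summit (38.5%, against 18.1% over all genes), 5 a MICAL1-M1 summit (38.5%, against 16.6%) and 1 a DIV7 summit (7.69%, against 18.4%).

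Between their ends the 48 genes span 7.079 Mb and held 564 summits in TBC1D3, 519 in MICAL1-M1, 563 in mCherry DIV7 and 398 in the control. That is 7.97 summits per 100 kb (95% exact Poisson interval 7.32 to 8.65) in TBC1D3, 7.33 (6.71 to 7.99) in MICAL1-M1, 7.95 (7.31 to 8.64) in mCherry DIV7 and 5.62 (5.08 to 6.20) in the control. Over all protein-coding genes the densities were 7.92, 6.78, 8.15 and 5.10. Gene bodies of the release machinery therefore lay near the background, which is inside the interval in every library. Syt1 alone held 85 of the 519 summits in MICAL1-M1 and 86 of the 398 in the control.

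Among the 17 members of at least 100 kb some differed widely between libraries. Syt1 held 52 summits in TBC1D3, 85 in MICAL1-M1, 44 in mCherry DIV7 and 86 in the control, or 10.1, 16.6, 8.57 and 16.8 per 100 kb. In the control this density is ahead of 98.0% of the 2428 protein-coding genes of that length, and in mCherry DIV7 ahead of 52.2%. Unc13c went the other way, with 43 summits in TBC1D3, 8 in MICAL1-M1, 51 in mCherry DIV7 and 4 in the control, or 8.13, 1.51, 9.65 and 0.757 per 100 kb. Syt2 held 13, 1, 7 and 0, and Rimbp2 33, 15, 24 and 11, in the same order of libraries. In these 4 genes MICAL1-M1 and the control, the deep libraries, lie on one side. TBC1D3 and mCherry DIV7, the shallow ones, lie on the other. The 4 are given because they differ, so this split does not describe the 17 genes as a set. The members with the most control summits after Syt1 were Erc2 with 68, 75, 79 and 46, Syn3 with 40, 35, 50 and 38, Rims2 with 37, 34, 30 and 33, and Ppfia2 with 38, 46, 32 and 31, which vary less between libraries.

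Across the 17 genes Spearman's rank correlation of body density was 0.860 between MICAL1-M1 and the control and 0.654 between TBC1D3 and mCherry DIV7. For the other pairs it was 0.147 to 0.368. Over the 2428 long genes the corresponding values were 0.827 and 0.617, and 0.441 to 0.468 for the other pairs. These are correlations across genes within libraries that share depth by pair, and genes are not replicates. The ratio of the 90th to the 10th percentile of density over the 17 genes was 2.55 in TBC1D3, 5.43 in MICAL1-M1, 2.16 in mCherry DIV7 and 7.15 in the control, so densities were most even in the shallow libraries. Every list was also cut to 96670 peaks, the strongest first. The cut fell among tied peaks, 66705 of them for the DIV7 list, 57626 for TBC1D3 and 31297 for MICAL1-M1. Which of these were kept was thus not set by strength, and other choices among them were not tested. After the cut the correlation was 0.853 between MICAL1-M1 and the control but 0.248 between TBC1D3 and mCherry DIV7. The latter was below the 0.502 between MICAL1-M1 and mCherry DIV7. The likeness of the shallow libraries over these 17 genes was thus not seen at equal list size. Over the 2428 long genes it remained, at 0.501, against 0.812 between MICAL1-M1 and the control and 0.384 to 0.421 for the other pairs. Syt1 then held 20, 58, 22 and 86 summits and Unc13c 21, 5, 28 and 4 in TBC1D3, MICAL1-M1, mCherry DIV7 and the control, with the same contrast as before. Rimbp2 held 15, 12, 9 and 11 and no longer showed it, and Syt2 held 5, 1, 4 and 0.

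**Figure D4:**
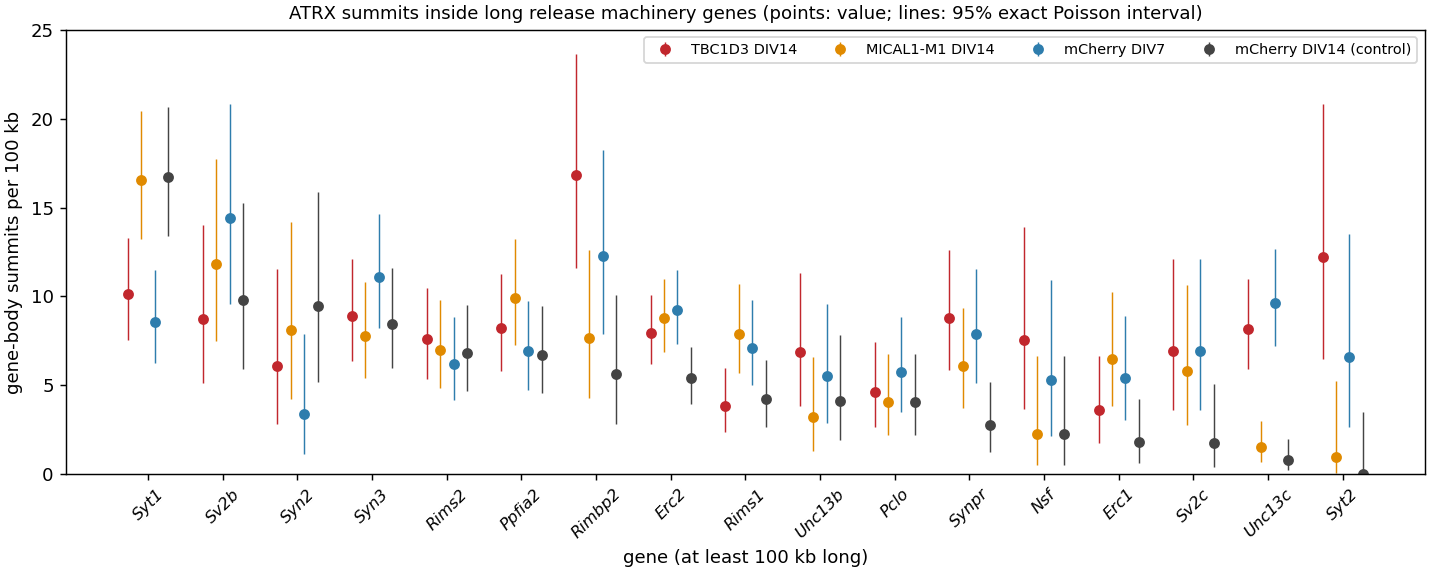
Points give peak summits per 100 kb of gene body (y axis) for the 17 release machinery genes of at least 100 kb (x axis, ordered by the control value), by library (colour), with 95% exact Poisson intervals as lines. Syt1 is highest in MICAL1-M1 and the control, while Unc13c, Syt2 and Rimbp2 are higher in TBC1D3 and mCherry DIV7.

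Strong peaks were also found deep inside some genes. In mCherry DIV7 a peak of 4.38-fold and q 0.0251 lay 193 kb from the nearest end of Unc13c, the gene with no gene-end peak. In the control, peaks with q of at most 0.05 lay inside Syt1, Syn3 and Rims2, 204 kb, 196 kb and 164 kb from the nearest gene end, and inside Cplx2. In TBC1D3 no body peak of the 48 genes passed this threshold.

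Other genes of the presynaptic terminal were listed for comparison, 42 in all, among them further syntaxins, calcium channels and endocytic proteins. A gene-end summit was found in 16 of these in TBC1D3 (38.1%), 19 in MICAL1-M1 (45.2%), 15 in mCherry DIV7 (35.7%) and 31 in the control (73.8%). The order of the libraries was that of the 48 genes in that the control had the most and mCherry DIV7 the fewest. Those that passed q of at most 0.05 did so in the control. Cacna1b, the N-type calcium channel of release sites, had 3.94-fold (q 0.00229). Stxbp5, the SNARE-binding tomosyn, had 3.29-fold (q 0.047), Cadps, a priming factor of dense-core vesicles, 3.25-fold (q 0.0372), and Sncb, a presynaptic protein gene, 3.16-fold (q 0.0363). Of 10 marker genes each, 4 neuronal markers were occupied in TBC1D3, 7 in MICAL1-M1, 4 in mCherry DIV7 and 8 in the control, and 3, 0, 4 and 0 microglial markers. For astrocytes the counts were 4, 4, 4 and 5, and for oligodendrocytes 4, 5, 4 and 5. Over all genes the shares were 33.4%, 38.7%, 33.2% and 42.3% in the same order, and the part of cell composition in the counts of the release machinery was not tested.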

How the data were processed

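ATRX ChIP-seq peak lists of 4 libraries, 1 per group, were analysed; an input sample is not analysed here. Input DNA served as background, per the labels' protocols. The submitters' processing notes name Bowtie (1.3.0), MACS (1.4.2), SAMtools (1.9) and ChIPseeker (1.26.2), without saying what each did. Settings and build: not given in the sources used here. Which caller wrote the lists is uncertain. Peak names in the MICAL1-M1 list begin with M2; the list was taken as GEO assigns it.

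The deposited lists have 10 columns. The deposited score is the −log10 p times 10, rounded down, for every peak. The deposited fold fits a ratio of pileup to local background with a single fragment added to both. It is thus lower than the plain ratio. The deposited −log10 values are of p and q.

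Summits were placed on RefSeq GRCm38.p6 genes; 42.3% of all genes had a control summit at an end and 10.8% at 20 kb outside, the basis for taking this build. Where strand was needed it came from the RefSeq promoter table, which holds 37 of the 48 genes. Pileups were recovered from fold and p within 0.0001 in log10 p for at least 99.96% of peaks, and the code was tested on simulated data. Intervals are exact binomial or Poisson at 95% (Python 3.11.15, scipy 1.17.1). The 48 genes, classes, comparison lists and rules for named genes were chosen with earlier results of these data known. All 48 may be named; peaks just beyond the window were chosen after their values were seen. Alternatives were windows of 0.5 and 3 kb, overlap by the peak instead of its summit, q of at most 0.05, equal list sizes, the start alone and, added after seeing the data, no summit shared with another gene. 1 gene of the comparison list is not reported here.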

Additional observations from a re-analysis of the deposited data

How the results depend on the processing

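The control had more occupied release machinery genes than each other library under every alternative run, with differences from -13 (equal list sizes) to -4 (3 kb window) for TBC1D3, -9 to -1 for MICAL1-M1 and -19 (equal list sizes) to -9 for mCherry DIV7. Over all genes a 3 kb window turned the order, with TBC1D3 at 57.7%, MICAL1-M1 at 53.2%, mCherry DIV7 at 59.3% and the control at 53.0%, and the release machinery share of mCherry DIV7 was then 58.3%. Occupied genes numbered 35 in TBC1D3 with a 3 kb window. With a 0.5 kb window there were 12 of 48 in TBC1D3, against 20.4% of all genes. In mCherry DIV7 there were then 11 of 48 (22.9%), against 20.6%, so the excess in both shallow libraries was small. At q of at most 0.05 TBC1D3 had 0, MICAL1-M1 had 0, mCherry DIV7 had 0 and the control had 9. With lists of equal size mCherry DIV7 had 12, a larger share than over all genes. With the start alone, over 37 genes, TBC1D3 had 13 and MICAL1-M1 had 19. Gene-body summits per 100 kb at q of at most 0.05 were 0 in TBC1D3, 0.0283 in MICAL1-M1, 0.0141 in mCherry DIV7 and 0.155 in the control. Over all protein-coding genes they were 0.0123, 0.0422, 0.0147 and 0.267. The release machinery values rest on 0, 2, 1 and 11 summits in the same order, so no depletion is read from them. With lists of equal size TBC1D3 had 3.60, MICAL1-M1 4.92 and mCherry DIV7 3.59, which puts each of them below the 5.62 of the control, because the lists were shortened. The densities over all genes were then 3.83, 4.79 and 3.71, and 5.10 in the control. All equal-size values outside the control rest on an arbitrary choice among peaks tied at the cut. The difference between MICAL1-M1 and the control was -9 both at q of at most 0.05 and with lists of equal size, against -2 as reported. The other recomputed counts of genes and densities stayed within 1.5 times, and the differences kept their sign. No paired analysis was possible because each group has 1 library, and for the same reason no library could be left out. Depth limits every call: a TBC1D3 or DIV7 gene-end peak rests on 3 to 8 fragments.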

Other observations

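Among the other presynaptic genes, Sh3gl2, which encodes the endocytic protein endophilin A1, held 9.24 gene-body summits per 100 kb in TBC1D3, 22.3 in MICAL1-M1, 8.70 in mCherry DIV7 and 17.4 in the control. Syt9, a synaptotagmin, held 5.61, 3.36, 9.53 and 0.56 in the same order. The values for Sh3gl2 are higher in the deep libraries and those for Syt9 in the shallow ones, as at Syt1 and Unc13c. Both were named after their values were seen.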
